A study of Mus musculus with 15 samples.

Results

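Expression of 9 genes of lipoprotein uptake and lipid efflux was examined in the mouse hippocampus, namely the receptors *Lrp1*, *Lrp8*, *Vldlr* and *Sorl1*, the transporters *Abca1*, *Abcg1* and *Abca7*, and the apolipoproteins *Clu* and *Apod*. They were chosen by name as receptors of apolipoprotein E (ApoE), transporters that load lipid onto it, and other apolipoproteins of the brain. The rule uses no measured value, although it was written with earlier results of these data known. They are 9 of the 55471 genes in the deposited count table. All 9 had more than 1 CPM (counts scaled to a common library total) in at least 3 libraries, the filter that left 16171 genes for testing.

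In the brain, cholesterol cannot be supplied from the blood and travels between cells on lipoprotein particles built mainly around ApoE. Glial cells pass cholesterol and phospholipid to these particles through ATP-binding cassette transporters, of which ABCA1 and ABCG1 are the best known. Neurons and other cells take the particles up through receptors of a shared lipoprotein receptor family. Some of these receptors are also signalling receptors for reelin, and the sorting receptor SORLA binds both ApoE and the amyloid precursor protein (APP).

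RNA came from whole hippocampi of female mice aged 3 months, with 3 libraries in each of 5 groups and the groups divided over 2 sequencing batches. In batch 1, DM mice (AppNL-G-F/NL-G-F together with Apoe4+/wt) and APP-TKI mice (AppNL-G-F/NL-G-F) were compared with WT mice (Wild-type), and in batch 2, ApoE4 mice (ApoE4+/wt) were compared with a WT group of their own. The *App* mutations are knocked in at the mouse *App* locus with a humanised amyloid-β sequence and are homozygous in DM and APP-TKI mice, whereas DM and ApoE4 mice carry a single copy of the knocked-in human *APOE4* allele and still carry a mouse *Apoe* allele. DM against WT, APP-TKI against WT and DM against APP-TKI draw on the same 9 libraries, so these comparisons are not independent of each other. Total counts were 32754717 to 44630808 a library. The labels number the replicates without naming animals, and the study describes its replicates as mice.

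A few libraries stood apart. Summed choroid plexus markers reached 2011 CPM in ApoE4 replicate 1 and 1698 CPM in WT replicate 3 of batch 2, against 65.4 to 110 CPM in the other 4 libraries of that batch. Summed striatal markers were 1267 CPM in ApoE4 replicate 3 and 174 to 235 CPM in the other 14 libraries, and thalamic markers were highest in WT replicate 3 of batch 2. Pituitary markers summed to 8.08 to 23.6 CPM in WT libraries of batch 2 and to at most 3.37 CPM elsewhere. Summed nuclear noncoding RNAs were 11950 to 13610 CPM in 4 libraries of batch 1 (DM replicate 1, APP-TKI replicates 1 and 2, WT replicate 1) and 7747 to 8963 CPM in the other 5. Markers of hippocampal neurons summed to 1096 to 1368 CPM over all libraries, so the labelled tissue was present in each.

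None of the 9 genes passed the threshold for differential expression in any comparison in the main test. With the quasi-likelihood test of edgeR at an adjusted p under 0.1, 0 of 9 were called in DM against WT mice (background 0.0124% of 16171 genes), 0 in APP-TKI against WT mice (0.00618%), 0 in DM against APP-TKI mice (0%) and 0 in ApoE4 against WT mice (0%). At an unadjusted p under 0.05, 1 of 9 passed in DM against WT mice (*Apod*), where 4.55% of all genes did, and 0 of 9 passed in APP-TKI against WT (3.56% of all genes), DM against APP-TKI (3.78%) and ApoE4 against WT mice (5.99%). The robust likelihood ratio test of edgeR called *Apod* alone of the 9 in DM against WT mice, where it called 0.841% of all genes. It called no member in APP-TKI against WT (0.309% of all genes), DM against APP-TKI (0.328%) or ApoE4 against WT mice (0.773%). The Wald test of DESeq2 called no member in any of these, where it called 0.309%, 0.155%, 0.111% and 0.297% of all genes. The median log2 fold change of the 9 genes was -0.03 in DM against WT mice, close to the 0.01 of all genes tested. It was -0.04 in DM against APP-TKI mice and -0.01 in ApoE4 against WT mice, where all genes had medians of 0.00 and -0.01.

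**Figure D1:**
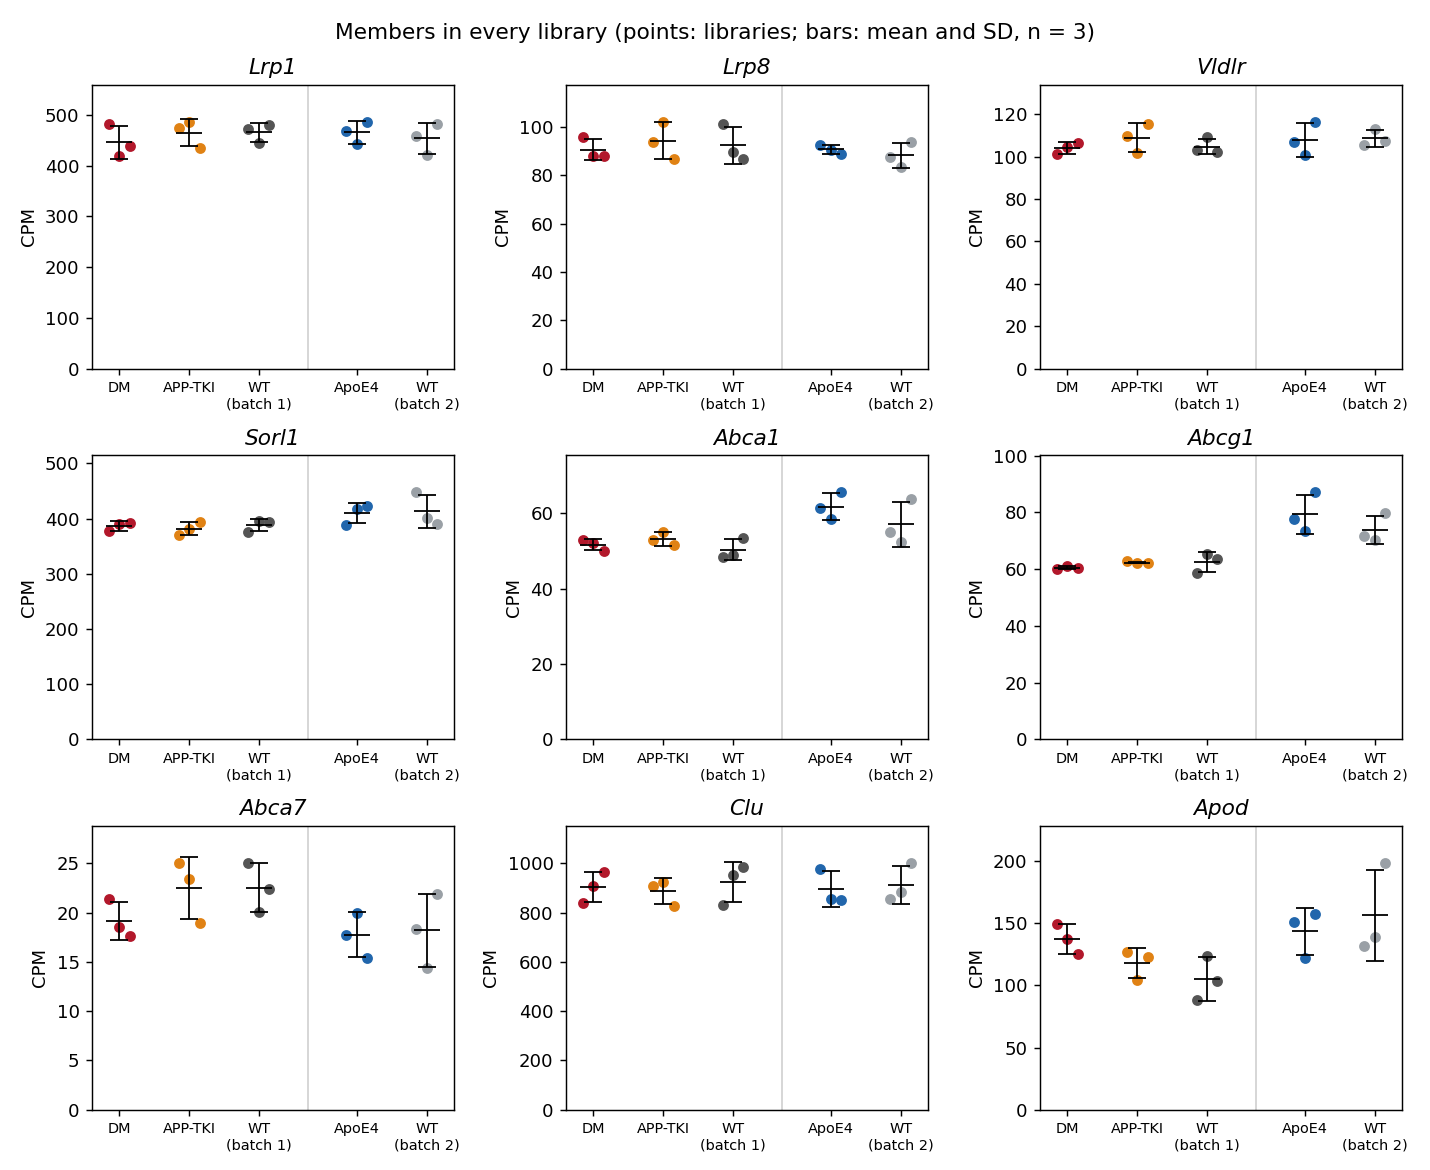
CPM of the 9 genes in each library (points) with the mean and SD of 3 libraries a group (bars), for DM, APP-TKI and WT libraries of batch 1 left of the grey line and ApoE4 and WT libraries of batch 2 right of it. The libraries of each group overlap those of their comparison for most genes. *Apod* in DM mice, at 125 to 149 CPM against 88.5 to 124 CPM in WT mice, and *Abcg1* in DM mice, at 60.0 to 61.0 CPM against 62.1 to 62.7 CPM in APP-TKI mice, do not overlap.

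The receptors were nearly level across genotypes. *Lrp1* encodes a large endocytic receptor for ApoE and many other ligands, and lies on chromosome 10 of GRCm38 (127538161 to 127621148, minus strand). It had 482, 419 and 438 CPM in DM mice, 474, 486 and 435 CPM in APP-TKI mice, and 471, 445 and 480 CPM in WT mice of batch 1. ApoE4 mice had 469, 442 and 486 CPM of *Lrp1* and WT mice of batch 2 had 459, 420 and 481 CPM. Every group held both high and low libraries. The log2 fold change was -0.06 in DM against WT mice (95% interval -0.21 to 0.09, adjusted p = 1.00) and 0.04 in ApoE4 against WT mice (95% interval -0.12 to 0.19, adjusted p = 0.910). Adjusted p-values of *Lrp1* and of the genes that follow are those of the edgeR quasi-likelihood fit unless another test is named.

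*Lrp8*, on chromosome 4 (107802261 to 107876840, plus strand), encodes ApoER2, the neuronal ApoE receptor that also receives reelin. It had 95.7, 88.1 and 88.0 CPM in DM mice, 93.9, 102 and 86.9 CPM in APP-TKI mice, and 101, 89.8 and 86.7 CPM in WT mice of batch 1. The 4 highest of these 9 values were in the 4 libraries with the most nuclear noncoding RNA. ApoE4 mice had 92.7, 90.7 and 88.8 CPM of *Lrp8* and WT mice of batch 2 had 87.6, 83.4 and 93.7 CPM, which overlapped. *Vldlr*, on chromosome 19 (27216484 to 27254231, plus strand), encodes the other reelin receptor of the family. It had 101, 104 and 107 CPM in DM mice, 110, 102 and 115 CPM in APP-TKI mice, and 103, 109 and 102 CPM in WT mice of batch 1. Its values in batch 2, 107, 100 and 116 CPM in ApoE4 mice against 105, 113 and 107 CPM in WT mice, lay in the same range.

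*Sorl1*, on chromosome 9 (41964720 to 42124297, minus strand), encodes SORLA, which routes APP through the endosomes. It had 377, 391 and 392 CPM in DM mice, 370, 380 and 394 CPM in APP-TKI mice, and 376, 395 and 394 CPM in WT mice of batch 1. ApoE4 mice had 389, 418 and 422 CPM of *Sorl1* and WT mice of batch 2 had 448, 402 and 390 CPM. An antisense gene, *Gm16214*, shares 185 bases of exon with *Sorl1* and had 13 to 81 counts a library. Whether counting used strand was not given in the sources used here, and reads in that stretch cannot be assigned with certainty. Across the 4 comparisons, log2 fold changes of *Lrp8*, *Vldlr* and *Sorl1* were between -0.07 and 0.06. The 95% interval of *Lrp8* in DM against APP-TKI mice, among the wider ones, ran from -0.23 to 0.11.

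None of the cholesterol transporters passed the threshold in the main test. *Abca1*, on chromosome 4 (53030787 to 53159895, minus strand), passes cholesterol and phospholipid to lipid-poor apolipoprotein and is a target of the oxysterol-sensing liver X receptors (LXR). Its promoter is shown because it holds the site through which LXR is known to act. The 250 bases before its start, at chr4:53159896-53160145 on the minus strand (GRCm38.p6, from RefSeq), read 5′ to 3′ as follows, with matches in capitals.

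Abca1: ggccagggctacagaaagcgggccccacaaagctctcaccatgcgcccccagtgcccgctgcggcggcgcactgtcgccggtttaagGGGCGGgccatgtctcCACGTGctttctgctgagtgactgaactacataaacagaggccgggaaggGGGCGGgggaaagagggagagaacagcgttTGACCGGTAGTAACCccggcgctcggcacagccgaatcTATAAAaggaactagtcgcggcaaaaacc

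The motifs searched on both strands were the direct repeat of nuclear receptor half-sites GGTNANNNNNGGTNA, the E-box CACGTG, the TATA box TATAAA, the GC box GGGCGG and the CCAAT box CCAAT. In *Abca1* the direct repeat was read from the other strand at -67 to -53 from the start, and the E-box (-147 to -142), the TATA box (-29 to -24) and 2 GC boxes stood around it. The direct repeat occurs in 0.621% of 32851 RefSeq promoters of the same length, the E-box in 6.02%, the TATA box in 12.4%, the GC box in 32.7% and the CCAAT box in 33.9%. Of the 9 genes, 7 had a promoter in the RefSeq table, and *Abca1* alone among them held the direct repeat.

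*Abca1* had 53.0, 52.1 and 50.0 CPM in DM mice, 53.0, 55.1 and 51.6 CPM in APP-TKI mice, and 48.5, 49.0 and 53.5 CPM in WT mice of batch 1. ApoE4 mice had 61.3, 58.5 and 65.5 CPM and WT mice of batch 2 had 55.0, 52.5 and 63.8 CPM. In ApoE4 mice all 3 values were above the 2 lower WT values, while WT replicate 3, high in choroid plexus markers, lay among them. The log2 fold change in ApoE4 against WT mice was 0.11 (95% interval -0.08 to 0.31, adjusted p = 0.775). Without WT replicate 3 it was 0.20 for *Abca1* (adjusted p = 0.722), and without both libraries high in choroid plexus markers it was 0.21 (adjusted p = 0.843). Over all alternatives the log2 fold change of *Abca1* in ApoE4 against WT mice lay between 0.06 and 0.21, and its adjusted p between 0.697 and 1.00. The highest value of *Abca1*, 65.5 CPM, was in ApoE4 replicate 3, the library high in striatal markers. Its batch-centred r with those markers was 0.55 over the 15 libraries. *Abca1* was 0.04 and 0.08 higher on the log2 scale in DM and in APP-TKI mice than in WT mice, with adjusted p of 1.00 for both.

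*Abcg1*, on chromosome 17 (31057675 to 31117988, plus strand), exports cholesterol to particles that already carry lipid. It had 60.0, 61.0 and 60.4 CPM in DM mice, 62.7, 62.1 and 62.1 CPM in APP-TKI mice, and 58.6, 65.4 and 63.7 CPM in WT mice of batch 1. The 3 DM libraries all lay below the 3 APP-TKI libraries, although the log2 fold change was -0.04 (95% interval -0.17 to 0.08, adjusted p = 0.987). *Abcg1* was the 1 member of 9 wholly lower in that comparison, where 2.9% of all genes were, and 0 of 9 were wholly higher, against 5.03% of all genes. ApoE4 mice had 77.5, 73.5 and 87.0 CPM and WT mice of batch 2 had 71.6, 70.3 and 79.6 CPM, so the groups overlapped. The log2 fold change of *Abcg1* in ApoE4 against WT mice was 0.10 (95% interval -0.08 to 0.28, adjusted p = 0.782), and 0.03 without ApoE4 replicate 3, the library high in striatal markers. No library of batch 1 reached the lowest value of batch 2. Batch and dissection cannot be told apart in that step, and it enters none of the comparisons.

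*Abca1* and *Abcg1* moved together over the 15 libraries once the mean of each batch was subtracted (Pearson's r = 0.74, Spearman's rho = 0.75). This rested on batch 2, where r was 0.94 over 6 libraries, against 0.17 over 9 libraries of batch 1, and r over all fell to 0.52 without the 2 libraries farthest from the median. The level of *Abcg1* went with the striatal markers over all libraries (r = 0.74, rho = 0.35), and r was 0.20 when ApoE4 replicate 3 and WT replicate 1 of batch 2 were left out. The part of striatal RNA in the values of *Abcg1* was not tested further.

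*Abca7*, on chromosome 10 (79996494 to 80015572, plus strand), is a relative of *Abca1* in whose human counterpart rare loss-of-function variants are known to raise the risk of Alzheimer's disease. Its promoter is shown for contrast with that of *Abca1*. The bases before the start, at chr10:79996244-79996493 on the plus strand (GRCm38.p6, from RefSeq), hold no direct repeat, E-box or TATA box, and have 2 CCAAT boxes and a GC box, in capitals.

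Abca7: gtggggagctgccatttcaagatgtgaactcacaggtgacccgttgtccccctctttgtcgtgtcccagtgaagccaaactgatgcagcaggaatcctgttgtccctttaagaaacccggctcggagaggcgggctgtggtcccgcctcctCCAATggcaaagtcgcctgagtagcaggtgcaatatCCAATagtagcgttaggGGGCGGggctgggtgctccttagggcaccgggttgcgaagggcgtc

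*Abca7* had 21.3, 18.5 and 17.7 CPM in DM mice, 25.0, 23.4 and 19.0 CPM in APP-TKI mice, and 25.0, 20.1 and 22.4 CPM in WT mice of batch 1. DM libraries tended to the low side, with an overlap through DM replicate 1 in both comparisons. The log2 fold change was -0.23 in DM against WT mice (95% interval -0.49 to 0.03, adjusted p = 1.00) and -0.23 in DM against APP-TKI mice (95% interval -0.49 to 0.03, adjusted p = 0.987). With the replicate number as a block, *Abca7* passed an unadjusted p of 0.05 in both comparisons, with adjusted p of 0.688 in DM against WT mice and 0.760 in DM against APP-TKI mice. *Abca7* had 17.8, 20.0 and 15.4 CPM in ApoE4 mice and 18.3, 14.4 and 21.8 CPM in WT mice of batch 2, where the ranges coincided. Its level went with the nuclear noncoding RNAs (batch-centred r = 0.68, rho = 0.65, n = 15, 0.79 and 0.63 within batches 1 and 2, and 0.55 without the 2 libraries farthest from the median). Of these RNAs, 5 of 6 were lower in DM than in WT mice and 5 of 6 lower than in APP-TKI mice, none of them called. Their sums in DM mice (7747 to 13140 CPM) and WT mice (8067 to 13610 CPM) overlapped. In APP-TKI against WT mice 5 of 6 were higher, and *Abca7* had a log2 fold change of -0.003. *Abca7* also went against the neuron markers (batch-centred r = -0.68, n = 15). The part of nuclear RNA or of neurons in the values of *Abca7* was not tested.

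**Figure D2:**
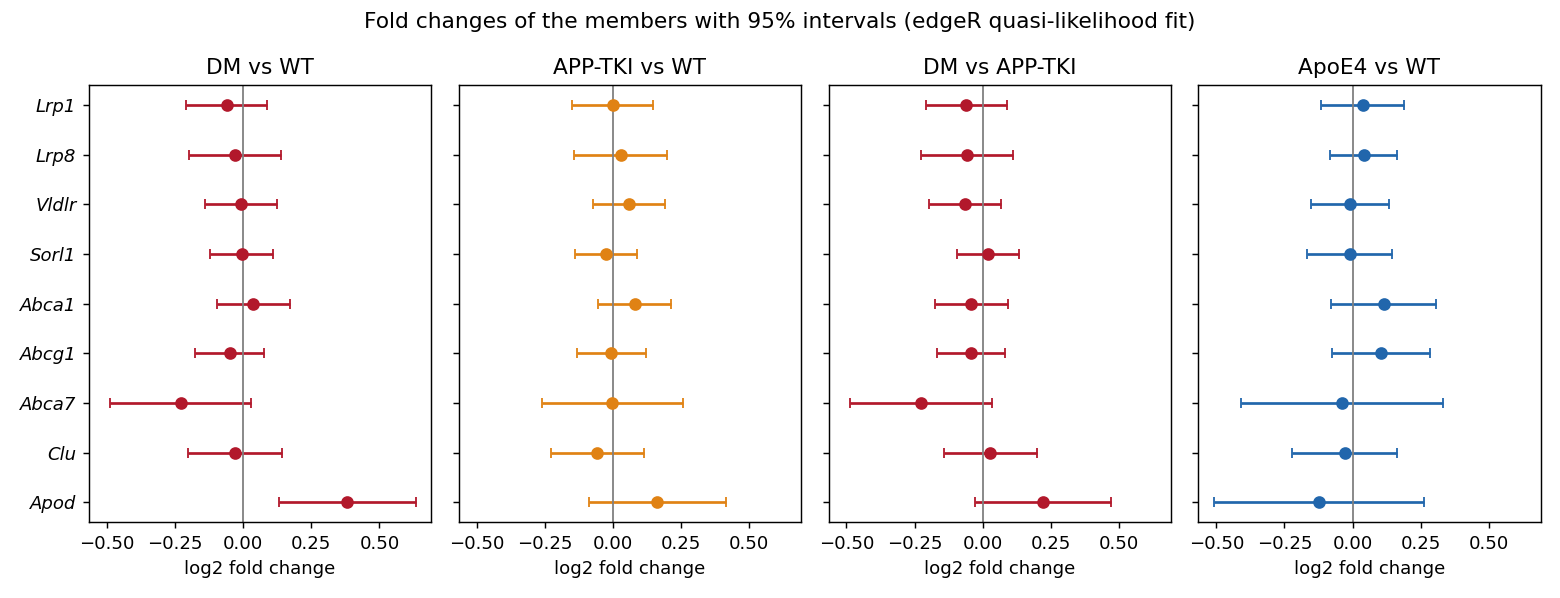
Log2 fold changes of the 9 genes (horizontal axis) with 95% intervals from the quasi-likelihood fit of edgeR, a panel for each comparison. Every interval includes 0 except that of *Apod* in DM against WT mice, 0.13 to 0.63.

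Of the apolipoproteins, *Clu* stayed level and *Apod* showed the largest difference of the 9 genes. *Clu*, on chromosome 14 (65968483 to 65981547, plus strand), encodes clusterin, an extracellular chaperone and lipid carrier made mostly by astrocytes. It had 840, 909 and 964 CPM in DM mice, 909, 924 and 828 CPM in APP-TKI mice, and 831, 951 and 986 CPM in WT mice of batch 1. ApoE4 mice had 978, 855 and 851 CPM of *Clu* and WT mice of batch 2 had 855, 881 and 1001 CPM. The highest library of each group in batch 2 was the one high in choroid plexus markers. The log2 fold change of *Clu* was -0.03 in DM against WT, -0.06 in APP-TKI against WT and -0.03 in ApoE4 against WT mice, with adjusted p of at least 0.947. Its level went with the astrocyte markers (batch-centred r = 0.76, rho = 0.65, n = 15, and 0.61 without the 2 libraries farthest from the median).

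*Apod*, on chromosome 16 (31296192 to 31314808, minus strand), encodes a lipocalin that carries small hydrophobic molecules and is made in the brain by oligodendrocytes, astrocytes and fibroblasts of the meninges and vessels. Its promoter is shown because *Apod* had the largest fold change of the members in DM against WT mice, and it holds none of the 5 motifs searched. It lies at chr16:31314809-31315058 on the minus strand (GRCm38.p6, from RefSeq).

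Apod: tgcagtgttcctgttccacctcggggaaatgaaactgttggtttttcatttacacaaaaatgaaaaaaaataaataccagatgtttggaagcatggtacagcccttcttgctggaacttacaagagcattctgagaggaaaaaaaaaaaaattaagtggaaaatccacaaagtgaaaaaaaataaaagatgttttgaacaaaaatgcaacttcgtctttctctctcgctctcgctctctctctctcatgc

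*Apod* had 149, 137 and 125 CPM in DM mice, against 88.5, 124 and 104 CPM in WT mice of batch 1. All DM libraries were above all WT libraries, by a narrow margin between DM replicate 3 and WT replicate 2. The mean was 137 ± 12.1 CPM in DM mice and 105 ± 17.6 CPM in WT mice (SD, n = 3 each), a fold of 1.30 and a log2 fold change of 0.38 (standard error 0.11, 95% interval 0.13 to 0.63, adjusted p = 0.712). It was the 1 of 9 genes wholly higher in DM mice, where 7.29% of all genes were, and 0 of 9 were wholly lower, against 3.14% of all genes. The robust likelihood ratio test of edgeR gave *Apod* an adjusted p of 0.0393, and the DESeq2 Wald test 0.339. Each library of batch 1 could be left out and the log2 fold change stayed between 0.27 and 0.51, with adjusted p from 0.445 to 1.00.

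APP-TKI mice stood between the other groups of batch 1, with 126, 105 and 123 CPM of *Apod* and a log2 fold change of 0.16 against WT mice (95% interval -0.09 to 0.41, adjusted p = 1.00). DM against APP-TKI mice gave 0.22 (95% interval -0.03 to 0.47, adjusted p = 0.987), and the libraries overlapped. In APP-TKI against WT mice 0 of 9 members were wholly higher and 0 wholly lower, where 4.71% and 3.56% of all genes were. In batch 2, *Apod* had 151, 122 and 157 CPM in ApoE4 mice against 131, 139 and 198 CPM in WT mice, and WT replicate 3 was the highest of all 15 libraries. The log2 fold change was -0.12 (95% interval -0.51 to 0.26, adjusted p = 0.874), and it turned to 0.08 without that library. In ApoE4 against WT mice, too, 0 of 9 members were wholly higher and 0 wholly lower, against 5.39% and 6.79% of all genes. In bulk RNA, fewer cells of a type and less RNA in each cell cannot be told apart, for *Apod* as for the other members.

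Markers of several cell types were also higher in DM mice. Ependymal markers summed to 31.4 to 44.8 CPM in DM mice and 14.9 to 20.4 CPM in WT mice of batch 1, with 10 of 10 higher in DM mice and none called or at 0. They were also higher in 10 of 10 in ApoE4 against WT mice (65.6 to 121 CPM against 34.7 to 87.1 CPM), where *Apod* was not. Fibroblast markers summed to 163 to 179 CPM in DM mice and 129 to 160 CPM in WT mice, with 9 of 10 tested markers higher. Endothelial markers were higher in 12 of 12, with sums of 105 to 135 CPM in DM mice and 83.3 to 95.1 CPM in WT mice that did not overlap, and mural cell markers in 7 of 9. Choroid plexus markers were higher in 4 of 8. Oligodendrocyte markers were higher in 12 of 12, at 5177 to 6128 CPM in DM mice and 4122 to 6017 CPM in WT mice, which overlapped. Hippocampal neuron markers were lower in 7 of 10, at 1139 to 1188 CPM in DM mice and 1170 to 1368 CPM in WT mice, which also overlapped. Markers of the separate neuron list were higher in 6 of 12 and lower in 6. Over the 15 libraries, with batch means subtracted, *Apod* went with the ependymal (r = 0.76, rho = 0.79), fibroblast (r = 0.77, rho = 0.66) and choroid plexus markers (r = 0.67, rho = 0.65) and against those of hippocampal neurons (r = -0.76, rho = -0.75). Each of these held its sign within both batches, with r of 0.85 and 0.60 for the ependymal and -0.78 and -0.74 for the hippocampal markers in batches 1 and 2. Without the 2 libraries farthest from the median of the markers, r was 0.80 for the ependymal, 0.55 for the fibroblast, 0.68 for the choroid plexus and -0.81 for the hippocampal markers. Other lists were close over the 15 libraries, with r of 0.66 for thalamic, 0.60 for oligodendrocyte and 0.56 for mural cell markers. Endothelial markers had r = 0.24 with *Apod*, and those of the separate neuron list had r = -0.06. The part of these cells in the difference of *Apod* was not tested.

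**Figure D3:**
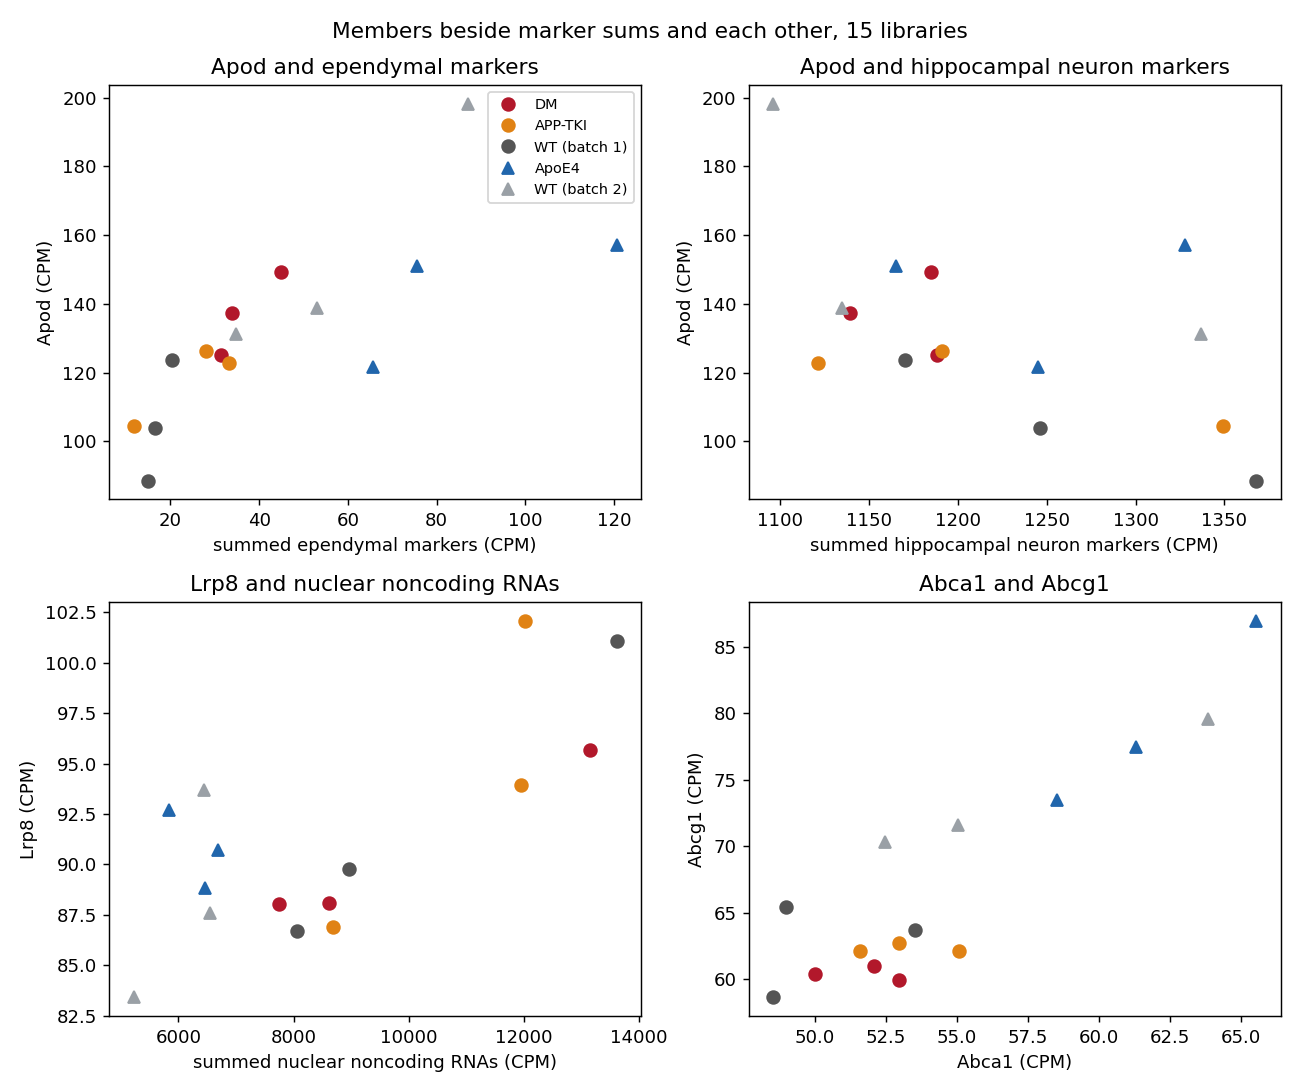
*Apod* in CPM against the summed CPM of 10 ependymal markers and of 10 hippocampal neuron markers, *Lrp8* against the summed CPM of 6 nuclear noncoding RNAs, and *Abcg1* against *Abca1*, with a point for each library (circles batch 1, triangles batch 2). *Apod* is high where ependymal markers are high in batch 1, *Lrp8* is highest in the 4 libraries of batch 1 with 11950 CPM or more of nuclear RNAs, and the transporters go together in batch 2 but not in batch 1.

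A fit of all 15 libraries asked whether *APOE4* changed the members differently on the mutant *App* background (DM minus APP-TKI) and on the WT background (ApoE4 minus WT). No member was called (0 of 9, background 0%, and also 0 of 9 with the robust likelihood ratio test at 0.748% and with DESeq2 at 0.161% of all genes) and 0 of 9 had p under 0.05, against 6.85% of all genes. *Apod* had the largest difference, 0.34 on the log2 scale (95% interval -0.11 to 0.80, adjusted p = 0.762). *Abca7* followed at -0.19 (95% interval -0.63 to 0.25, adjusted p = 0.849), *Abca1* at -0.16 (95% interval -0.37 to 0.06, adjusted p = 0.769) and *Abcg1* at -0.15 (95% interval -0.35 to 0.05, adjusted p = 0.764). Without WT replicate 3 of batch 2 the differences were -0.24 for *Abca1* (adjusted p = 0.757), -0.20 for *Abcg1* (adjusted p = 0.787) and 0.13 for *Apod* (adjusted p = 0.899). Over all alternatives they lay between -0.25 and -0.10 for *Abca1*, -0.22 and -0.08 for *Abcg1*, and 0.13 and 0.45 for *Apod*.

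Between genes, levels were compared per length, as CPM per kb of annotated exon. *Clu* was the most abundant of the 9 (263 ± 17.6 CPM per kb, SD over 15 libraries). *Apod* (51.2 ± 10.1), *Sorl1* (35.0 ± 1.78) and *Lrp1* (25.9 ± 1.35) came next, then *Vldlr* (10.6 ± 0.501), *Abcg1* (9.28 ± 1.17), *Lrp8* (8.68 ± 0.504), *Abca1* (5.29 ± 0.504) and *Abca7* (2.97 ± 0.471), all in CPM per kb. The ranges of *Apod* and *Sorl1* overlapped, as did those of *Vldlr* and *Abcg1* and of *Abcg1* and *Lrp8*, while the other neighbours in this order did not meet in any library. The place of *Abcg1* changed with the batch. Its group means were 8.28 to 8.57 CPM per kb in batch 1, below those of *Lrp8* (8.62 to 8.97), and 10.9 CPM per kb in ApoE4 mice, where *Vldlr* had 10.7.

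**Figure D4:**
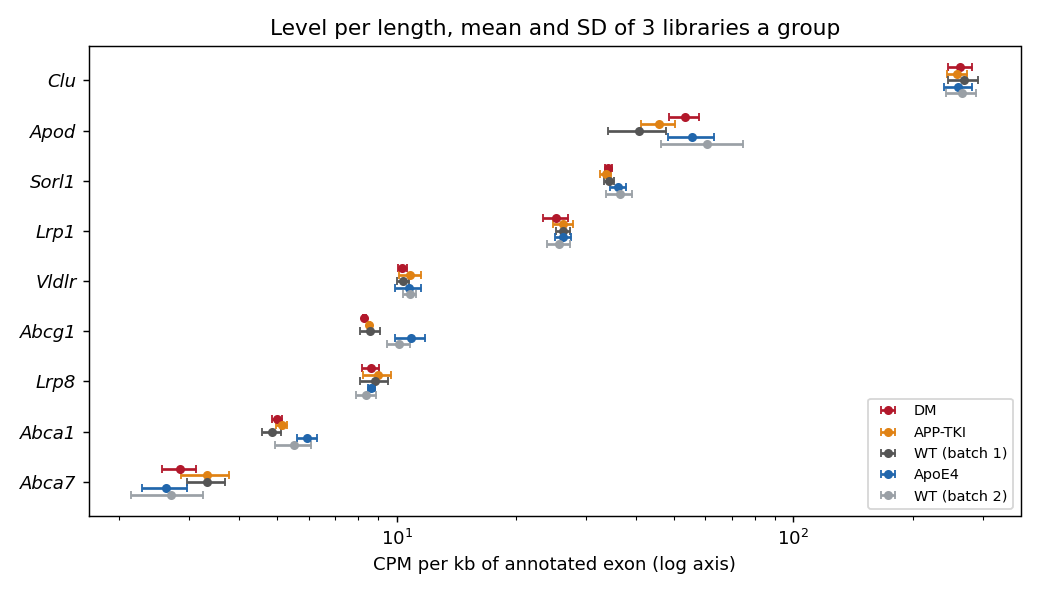
Level of the 9 genes in CPM per kb of annotated exon (horizontal log axis), with the mean and SD of 3 libraries for each group in its own colour. The order from *Clu* at 263 to *Abca7* at 2.97 CPM per kb spans far more than any difference between genotypes.

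The genes also differed in how much they varied within groups. The coefficient of variation among the 3 libraries of a group, averaged over groups, was 3.98% for *Sorl1*, 4.52% for *Abcg1*, 4.69% for *Vldlr*, 5.58% for *Abca1*, 5.67% for *Lrp1* and 5.83% for *Lrp8*, near the median of genes of like level (5.09% to 5.45%). *Clu* had 7.61%. *Abca7* had 13.7% and *Apod* 14.4%, above 91.1% and 97.8% of genes of like level, so the members with the largest fold changes were also those that varied most. The depth behind these values was unequal, as *Apod* had 3056 to 7555 counts a library and *Abca7* had 563 to 864 counts.

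*Lrp8* went with the nuclear noncoding RNAs more closely than any other member did (batch-centred r = 0.84, rho = 0.88, n = 15), at 0.90 within batch 1 and 0.58 within batch 2 and 0.81 without the 2 libraries farthest from the median, and *Lrp1* did so with r = 0.65. With the neuron markers, *Lrp8* had r = -0.64 and *Lrp1* had r = -0.48. These are among 144 correlations of members with 16 marker lists and 36 among members, described without a test, and libraries share depth, dissection and RNA quality. *Lrp8* and *Abca7* had r = 0.72 with each other, and *Vldlr* and *Abca7* had r = -0.54, the lowest of the 36. Of all protein-coding genes, the closest in pattern to *Lrp1* was *Srsf4* (r = 0.93), to *Lrp8* *Hsf1* and *Pnpla6* (0.91 each), and to *Vldlr* *Zfp281* (0.90). For *Sorl1* it was *Sort1* (r = 0.89), which encodes sortilin, a sorting receptor of the same family. *Zdhhc18* was closest to *Abca1* (0.87), *Cacng4* to *Abcg1* (0.90), *Snf8* to *Abca7* (0.89), *Eef2* to *Clu* (0.95) and *Anxa5* to *Apod* (0.91), each as Pearson's r of batch-centred log2 CPM over 15 libraries.

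Other genes of the pathway were read beside the members. *Apoe*, whose row combines mouse and human transcripts, had 1313 to 1842 CPM over all libraries, and its log2 fold change was 0.08 in DM against WT mice (95% interval -0.10 to 0.27) and -0.07 in ApoE4 against WT mice (95% interval -0.25 to 0.11).

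Of the 21 other lipoprotein receptors listed, 19 were tested and none was called by the quasi-likelihood test or by DESeq2 in any comparison. In DM against WT mice 10 of 19 were higher and 1 had an unadjusted p under 0.05, *Lrp2*, an epithelial endocytic receptor, at 3.14 ± 0.203 CPM in DM mice and 1.88 ± 0.248 CPM in WT mice (SD, n = 3 each, adjusted p = 0.516). The robust likelihood ratio test of edgeR called *Lrp2* there (adjusted p = 0.0438) and no other gene of the list. None of the 15 tested ligands, adaptors and regulators of the receptors was called by the quasi-likelihood test or by DESeq2. The smallest p values were for *Thbs1*, a ligand of LRP1 (log2 fold change -0.64), *Mylip*, the ubiquitin ligase that degrades lipoprotein receptors (-0.27), and *Sdc4*, a heparan sulphate proteoglycan (0.25), each in ApoE4 against WT mice with an adjusted p of 0.761. *Thbs1* was low, at 2.66 ± 0.102 CPM in ApoE4 mice and 4.15 ± 1.00 CPM in WT mice of batch 2 (SD, n = 3 each). Its highest value, 5.27 CPM, was in WT replicate 3, which was high in choroid plexus markers. The robust likelihood ratio test of edgeR called *Sdc4* in ApoE4 against WT mice (adjusted p = 0.0583). In that comparison 12 of the 15 were lower, with a median of -0.06 against -0.01 for all genes. Of 23 other lipid transporters, none was called by the quasi-likelihood test, the robust likelihood ratio test or DESeq2. *Abcb1a*, an efflux pump of brain endothelium, had a log2 fold change of 0.57 in DM against APP-TKI mice (adjusted p = 0.987). Beside it, 12 of 12 endothelial markers were higher there. With no filter on low counts, the quasi-likelihood test gave *Abcb1a* an adjusted p of 0.00363. It then called 109 of 34813 genes, against 0 in the main test.

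Of 16 tested genes of LXR and oxysterol metabolism, *Pltp*, which transfers phospholipid between lipoproteins, had the smallest p. It averaged 26.5 ± 2.93 CPM in DM mice and 16.1 ± 1.16 CPM in WT mice of batch 1 (SD, n = 3 each), with no overlap and a log2 fold change of 0.72 (95% interval 0.46 to 0.97, adjusted p = 0.146), beside the ependymal, fibroblast and endothelial markers given for *Apod*. *Cyp46a1*, the neuronal enzyme that makes 24-hydroxycholesterol, had 0.14 in the same comparison (adjusted p = 1.00). The median of the 16 genes was -0.04 in DM against WT mice. Of 13 tested apolipoproteins and lipid carriers, *Apoe* among them, 12 had a positive fold change in DM against WT mice, with a median log2 fold change of 0.14 against 0.01 for all genes, and none was called by the quasi-likelihood test. *Ptgds*, a lipocalin of meninges and choroid plexus, led them at 372, 346 and 416 CPM in DM mice against 162, 255 and 198 CPM in WT mice (log2 fold change 0.88, 95% interval 0.56 to 1.21, adjusted p = 0.146), beside the same markers. With the replicate number as a block, *Pltp* and *Ptgds* passed in DM against WT mice (adjusted p = 0.06 and 0.0375), and both were called by DESeq2 and by the robust likelihood ratio test, there and in DM against APP-TKI mice. The part of the marked cell types in these values was not tested.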

How the data were processed

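Raw read counts per gene were deposited for 15 libraries. Per the methods and the submitters' processing notes, the authors made these counts from paired-end reads of directional polyA libraries with Trimmomatic 0.39, STAR 2.7.1a (GENCODE mouse release M24 with the human *APOE* sequence added) and HTSeq 0.11.2. The HTSeq strand setting was not given in the sources used here. Of the 55471 gene IDs, 55230 were matched to symbols, positions and exon lengths of GENCODE M21 (GRCm38), an earlier release than that of the authors.

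The filter of 1 CPM exceeded in 3 or more libraries left 16171 genes. After upper-quartile scaling they were tested with the quasi-likelihood test of edgeR 4.0.16 (R 4.3.3), with batch 1 (9 libraries) and batch 2 (6 libraries) fitted apart, and all 15 libraries fitted together for the difference of *APOE4* effects. The authors used robust likelihood ratio tests within each batch, which served as an alternative here. The threshold was an adjusted p of 0.1 (Benjamini-Hochberg, all 16171 genes). Members' CPM values use the upper-quartile scaling of their batch, marker sums the library total, and 95% intervals come from the quasi-likelihood standard errors. Steps were tested on simulated data.

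Other alternatives were the Wald test of DESeq2 1.42.0, scaling by TMM or by median of ratios, filterByExpr or no filter, a threshold of 0.05, robust dispersions in the quasi-likelihood fit, fits of fewer or more libraries, a replicate block, and omission of single libraries. Leaving out both libraries high in choroid plexus markers was added after seeing the data. Same-numbered DM and WT libraries deviated together from their group means (r = 0.447, 0.195 and 0.301 across genes). Each DM library matched the WT library of its own number best. DM and WT replicate 1 were also both high in nuclear noncoding RNAs (13140 and 13610 CPM). The labels give no pairing, and whether the numbers pair animals was not tested. In DM against APP-TKI mice, replicates 1 and 3 matched their own number best (r = 0.225 and 0.22), but replicate 2 did not (r = -0.118). In APP-TKI against WT and in ApoE4 against WT mice, not all numbers matched.

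The members, gene lists and marker lists were chosen with earlier results of these data known. Named genes are all members, *Apoe*, the 3 genes of each of 5 pathway lists with the smallest unadjusted p over the within-batch comparisons and a mean of at least 1 CPM (none was called), and for likeness the 2 protein-coding genes with the highest batch-centred correlation. Some genes that this rule names are not reported here. Correlations used log2 CPM with a prior count of 1 and, for marker lists, the mean over the list. Promoters are RefSeq sequences of GRCm38.p6, matched by symbol to 7 of 9 members. *Abcg1* and *Clu* had no entry. Figures were drawn with matplotlib 3.10.9 in Python 3.11.15.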

Additional observations from a re-analysis of the deposited data

How the results depend on the processing

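The 45 fold changes of members were recomputed under each alternative, which gave 873 values. Of these, 829 kept their direction and their side of the threshold, 2 passed it (*Apod* in DM against WT mice) and 42 changed sign, in 20 fold changes. With no filter on low counts, *Apod* had an adjusted p of 0.00677 in DM against WT mice and 1 member was called, as it was by the robust likelihood ratio test of edgeR. The number of all genes called moved far more. In DM against WT mice it was 2 by the quasi-likelihood test, 136 by the robust likelihood ratio test, 50 by DESeq2 and 179 with no filter (34813 genes tested). It was 30 with only the compared groups in the fit, 11 with the replicate block, and 1 to 29 with a library left out. In ApoE4 against WT mice it was 0, 125, 48 and 12 in the first 4 of these, with 32419 genes tested in the last.

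Members with p under 0.05 in DM against WT mice numbered 1. They numbered 2 (*Abca7* and *Apod*) with DESeq2, median-of-ratios scaling, no filter and the replicate block, and 1 to 2 with a library left out. Of 16171 genes, 617, 681 and 950 passed with DESeq2, median-of-ratios scaling and the replicate block, against 736 in the main test. With no filter, 1452 of 34813 genes passed. In DM against APP-TKI mice 0 became 2 with the robust likelihood ratio test and with no filter (898 of 16171 and 1483 of 34813 genes, against 611 of 16171). It became 1 with only the compared groups in the fit and 1 with the replicate block (504 and 993 of 16171 genes). With a library left out it was 0 to 1, as in APP-TKI against WT and in ApoE4 against WT mice. Without both libraries high in choroid plexus markers the number of members was 1 in ApoE4 against WT mice (*Abca1*, with 889 of all genes against 969). It was 2 in the difference of *APOE4* effects (*Abca1* and *Abcg1*, with 1032 of all genes against 1107). In that difference, no filter gave 1 (*Apod*, with 2131 of 36318 genes) and a library left out gave 0 to 2. The replicate block changed no call of a member.

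The cause of the sign changes was not tested. With a library left out, log2 fold changes in DM against WT mice ran from -0.0748 to 0.0389 for *Lrp8*, -0.0259 to 0.0212 for *Vldlr*, -0.0291 to 0.0116 for *Sorl1* and -0.099 to 0.0213 for *Clu*. In APP-TKI against WT mice they ran from -0.0329 to 0.0455 for *Lrp1*, -0.0332 to 0.0962 for *Lrp8*, -0.051 to 0.0267 for *Abcg1*, -0.0873 to 0.1057 for *Abca7* (0.0116 with the robust likelihood ratio test) and -0.0919 to 0.0402 for *Apoe*. In DM against APP-TKI mice they ran from -0.1132 to 0.0034 for *Lrp8*, -0.0023 to 0.0431 for *Sorl1* and -0.0202 to 0.0781 for *Clu*. In ApoE4 against WT mice they ran from -0.0143 to 0.0818 for *Lrp1*, -0.067 to 0.0386 for *Vldlr* (0.0124 with no filter), -0.0514 to 0.0501 for *Sorl1* (0.0102 with no filter), -0.1813 to 0.1139 for *Abca7* and -0.0979 to 0.0429 for *Clu*. There *Apod* ran from -0.2341 to 0.0849 and was 0.0072 with the robust likelihood ratio test. Without both libraries high in choroid plexus markers, *Abca7* was 0.1125 and *Apod* 0.0452. In the difference of *APOE4* effects, values ran from -0.1046 to 0.0011 for *Vldlr*, -0.0309 to 0.0706 for *Sorl1* and -0.0151 to 0.1257 for *Clu*. With 3 libraries a group, the intervals given limit how small a difference could be detected.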

Other observations

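The genes that follow, outside the 9, are named only because they had among the smallest unadjusted p of their lists. *Fabp7*, the fatty acid binding protein of astrocytes and their precursors, averaged 21.5 ± 3.43 CPM in ApoE4 mice and 28.6 ± 4.70 CPM in WT mice of batch 2 (SD, n = 3 each), with a log2 fold change of -0.41 and an adjusted p of 0.761 from edgeR's quasi-likelihood test. The libraries of the 2 groups overlapped. *Stard4*, a cytosolic cholesterol carrier, averaged 27.2 ± 1.59 CPM in APP-TKI mice and 22.6 ± 1.58 CPM in WT mice of batch 1 (log2 fold change 0.27, adjusted p = 1.00). Its APP-TKI libraries were wholly above, as were those of 4.71% of all genes. *Abcc1*, an organic anion exporter, had a log2 fold change of -0.19 in DM against APP-TKI mice (adjusted p = 0.987). *Lrp1b*, a close relative of *Lrp1*, had -0.12 in ApoE4 against WT mice (adjusted p = 0.761). None of these passed the threshold.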
